A study of Mus musculus with 12 samples.

Results

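Solute carrier genes encode the membrane proteins that move amino acids, sugars, neurotransmitters, fatty acids, nucleosides, ions and mitochondrial metabolites across cell and organelle membranes. They were taken here as every gene symbol of the table that begins with Slc and a digit, with 1 such symbol left out by the rule. That gave 70 members of 3534 rows, in 29 numbered families and 16 transport classes. Carriers missing from the table could not be seen, so the ranks and shares below hold among these 70. All 70 matched a protein-coding gene of GENCODE M21.

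The series measured RNA from mouse aorta in 12 samples of 4 groups, 3 samples each. WT mice were fed a standard diet. HFD, HAPN and HSAPN mice were fed a high-fat diet with 60% of calories from fat, and the labels give 12 weeks of feeding. HFD and HAPN are labelled with the WT genotype, and HSAPN with a knockdown of APPL1, an adaptor protein that binds adiponectin receptors. What sets HAPN apart from HFD, how and in which cells APPL1 was knocked down, and the strain, sex and age of the mice are not given in the sources. The HFD files numbered 1 and 2 held identical values, so they were counted as 1 library, and HFD has n = 2 throughout. The labels do not say that replicates are separate animals, and the p-values measure only the spread between these samples, which may be technical.

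Solute carriers are grouped into numbered families by sequence, and members of a family often share a type of cargo. Family 25 carries metabolites across the inner mitochondrial membrane, family 2 holds the facilitative glucose transporters, and family 6 holds the sodium- and chloride-driven transporters that take noradrenaline, serotonin, dopamine and some amino acids back into cells. In the vessel wall they feed smooth muscle and endothelium with glucose and amino acids, and clear noradrenaline released by sympathetic nerves of the adventitia.

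The libraries held 15610000 to 17840000 reads, recovered from the values as whole reads. Aortic tissue is a mixture, and the libraries differed in tissue content. Contractile smooth muscle markers (8 of 10 fixed markers were in the table) summed to 231.8 to 2831 FPKM, so smooth muscle transcripts were present in each library. Within that list Tagln was at only 0.279 to 3.32 FPKM. No endothelial marker of the 10 fixed was in the table. FPKM is the number of reads scaled to exon length and to the size of the library. Summed adipocyte markers (11 genes) ranged from 51.5 to 1545 FPKM, and cardiac markers (2 genes, Tnnt2 among them) from 7.02 to 243 FPKM. Bpifa1, the 1 of 8 fixed airway markers in the table, ranged from 2.81 FPKM in HAPN replicate 3 to 10730 FPKM in WT replicate 2. Smooth muscle markers also had their highest sum in WT replicate 2. In bulk tissue, fewer cells of a type and less RNA per cell cannot be told apart.

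The most abundant transcript among the members was Slc25a4, the muscle-type ADP/ATP carrier of mitochondria, with a mean of 120.2 FPKM over the 11 libraries. Slc1a5, which takes up glutamine and other neutral amino acids, followed at 81.8 FPKM. Slc25a39, which brings glutathione into mitochondria, and the citrate carrier Slc25a1 were next. These were followed by Slc27a1, which takes part in fatty acid uptake, Slc2a1, the basal glucose transporter GLUT1, and Slc36a2, a proton-coupled amino acid transporter of brown fat. The 3 highest members made up 58.0% of the summed mean level of all 70, and the 10 highest 80.4%. Only 7 members had a mean of at least 10 FPKM, 28 lay between 1 and 10 FPKM, 24 between 0.1 and 1 FPKM and 11 below 0.1 FPKM.

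**Figure D1:**
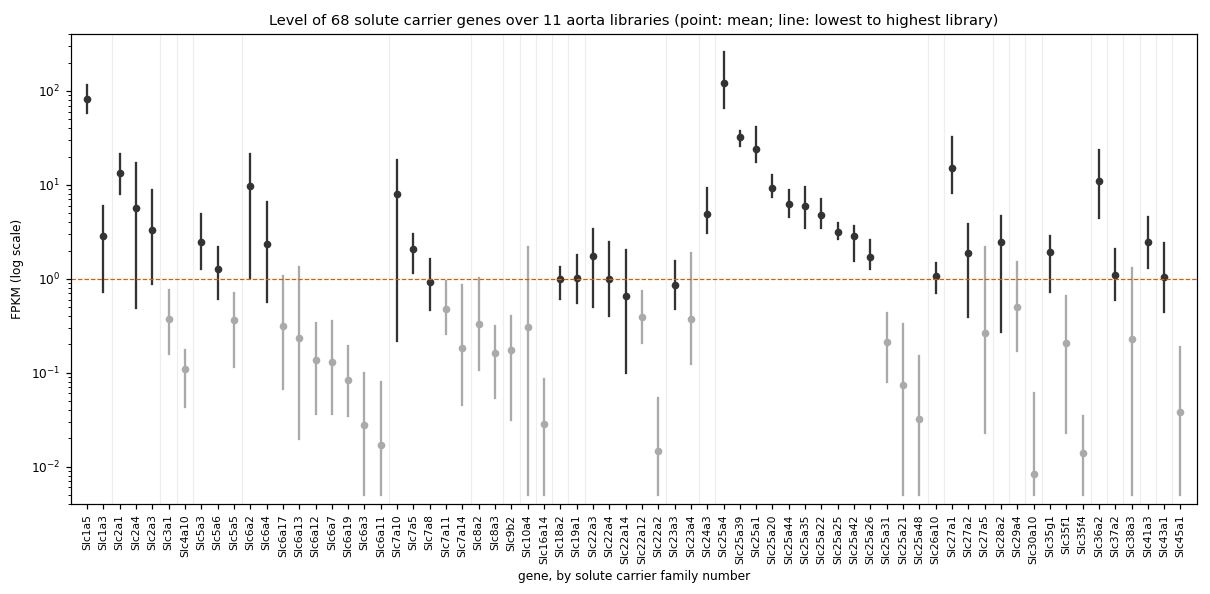
FPKM (log axis) of 68 of the 70 members in order of family number, with the mean over 11 libraries as a point and the lowest to highest library as a line; black members passed the filter of at least 1 FPKM in at least 3 libraries, grey ones did not, the dashed line marks 1 FPKM, and lines that reach the lower end include a library at 0. Family 25 holds the highest member, Slc25a4, and 11 of its 14 members passed.

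Of the 70 members, 39 passed the filter of at least 1 FPKM in at least 3 libraries and were tested, and 31 did not. Of those 31, 23 never reached 1 FPKM, and the other 8 did so in 1 or 2 libraries. Family 6 illustrates the difference: 2 of its 10 members passed, the noradrenaline transporter Slc6a2 and the serotonin transporter Slc6a4. The dopamine transporter Slc6a3 stayed at or under 0.0983 FPKM. The highest level below the filter was Slc10a4, a vesicular protein of cholinergic and monoamine neurons, at 2.18 FPKM (73 reads) in the library of HFD replicates 1 and 2. It was listed at 0 in 6 of the 11 libraries. Its level there stood beside the highest sum of sympathetic neuron markers (36.9 FPKM, against 5.19 to 13.6 FPKM elsewhere). Some classes were close to empty in the table, which holds only part of the recovered reads. The only monocarboxylate family member listed, Slc16a14, had 0 to 5 reads a library. The only listed member of families 30 and 39, Slc30a10, had 0 to 6. Other members of these classes are missing from the table, so the level of a class in the aorta was not measured. The single family 9 gene listed, Slc9b2, ranged from 0.03 to 0.40 FPKM.

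Most mitochondrial carriers varied less between libraries than the median tested member, whose highest to lowest ratio was 3.47: this held for 10 of the 11 tested, and Slc25a4 was the exception at 3.87. Slc25a39 ran from 25.97 to 37.8 FPKM, a highest to lowest ratio of 1.46, and the ratios were 1.51 for Slc25a25, 1.70 for the acylcarnitine carrier Slc25a20 and 1.94 for Slc25a44, which imports branched-chain amino acids. In all, 5 of the 39 tested members were under 2-fold; of all tested genes without a 0, 18.2% were under 2-fold. At the other end Slc7a10 spanned 86.0-fold, the insulin-responsive glucose transporter Slc2a4 35.6-fold, Slc6a2 21.1-fold, Slc22a14 20.6-fold, the purine nucleoside transporter Slc28a2 17.1-fold and Slc6a4 11.7-fold. These were the 6 of 39 tested members over 10-fold, beside 16.5% of all tested genes without a 0. The median ratio over all tested genes without a 0 was 3.46, so as a set the members varied about as much as the table.

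The leading genes of the other classes showed how group and library spread compare. Slc1a5 measured 116.5, 99.2 and 82.8 FPKM in WT, 107.7 and 70.3 FPKM in HFD, 80.3, 66.8 and 65.1 FPKM in HAPN, and 85.9, 58.1 and 67.3 FPKM in HSAPN. Slc25a20 measured 7.75, 7.71 and 8.68 FPKM in WT, 12.7 and 9.72 FPKM in HFD, 9.91, 10.2 and 8.46 FPKM in HAPN, and 7.46, 10.8 and 9.25 FPKM in HSAPN. Slc1a5 was highest in WT replicate 1, where many members were lowest, and Slc25a20 was highest in the library of HFD replicates 1 and 2. Slc24a3, which exchanges sodium for calcium and potassium and led its class, measured 3.74, 9.26 and 6.06 FPKM in WT, 6.31 and 3.04 FPKM in HFD, 5.23, 4.27 and 3.66 FPKM in HAPN, and 3.995, 3.25 and 4.897 FPKM in HSAPN. Slc28a2, which takes up purine nucleosides, measured 0.272, 1.64 and 3.86 FPKM in WT, 4.63 and 2.02 FPKM in HFD, 0.923, 2.76 and 2.88 FPKM in HAPN, and 2.81, 3.08 and 1.95 FPKM in HSAPN. Slc22a3, a transporter of organic cations and monoamines, measured 0.506, 0.543 and 2.302 FPKM in WT, 3.38 and 1.29 FPKM in HFD, 1.34, 2.47 and 1.62 FPKM in HAPN, and 1.21, 2.52 and 1.88 FPKM in HSAPN. Slc24a3 was highest in WT replicate 2, as were summed smooth muscle markers (2831 FPKM, against 231.8 to 877.3 FPKM in the other libraries), and the part of smooth muscle content was not tested. Slc28a2 and Slc22a3 were lowest in WT replicate 1 and highest in the library of HFD replicates 1 and 2, and the groups of all 3 genes overlapped in each comparison.

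At lower levels, the folate transporter Slc19a1 measured 0.591, 1.29 and 1.29 FPKM in WT, 1.801 and 0.7898 FPKM in HFD, 0.558, 0.882 and 0.9198 FPKM in HAPN, and 0.9998, 1.07 and 0.895 FPKM in HSAPN. Slc35g1 measured 1.24, 2.82 and 2.78 FPKM in WT, 2.63 and 0.728 FPKM in HFD, 1.51, 2.17 and 1.396 FPKM in HAPN, and 1.697, 1.69 and 2.55 FPKM in HSAPN. Slc37a2, of the sugar-phosphate exchanger family, measured 0.688, 0.598 and 1.04 FPKM in WT, 1.37 and 0.588 FPKM in HFD, 0.919, 1.59 and 2.06 FPKM in HAPN, and 0.904, 1.14 and 1.26 FPKM in HSAPN. The groups of these 3 genes overlapped in each of the 5 comparisons. Slc26a10 measured 0.709, 0.931 and 1.17 FPKM in WT, 0.952 and 1.46 FPKM in HFD, 0.857, 1.38 and 1.203 FPKM in HAPN, and 1.01, 1.02 and 1.21 FPKM in HSAPN. Its exons lie to 17.8% opposite B4galnt1, so its reads may include some of that gene.

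Which library was extreme was uneven. The library of HFD replicates 1 and 2 was the highest of 11 in 20 of the 39 tested members (51.3%, against 32.9% of all tested genes). WT replicate 1 was the lowest in 18 members (46.2%, against 28.9%). WT replicate 3 was the lowest in 0 of the members and in 0.904% of all tested genes.

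Several members stood high in the libraries with most fat and heart muscle markers. Slc2a4 measured 4.17, 17.2 and 9.67 FPKM in WT, 13.1 and 0.484 FPKM in HFD, 3.65, 5.21 and 1.12 FPKM in HAPN, and 1.74, 1.098 and 4.45 FPKM in HSAPN. Its highest libraries were WT replicate 2 and the library of HFD replicates 1 and 2, and the lowest was HFD replicate 3. Summed cardiac markers were 43.4, 215.1 and 157.5 FPKM in WT, 243.3 and 7.16 FPKM in HFD, 86.4, 86.6 and 7.02 FPKM in HAPN, and 21.7, 10.8 and 104.8 FPKM in HSAPN. Slc25a4 measured 78.99, 185.7 and 164.5 FPKM in WT, 257.7 and 73.5 FPKM in HFD, 102.0, 112.7 and 66.6 FPKM in HAPN, and 72.6, 73.98 and 134.3 FPKM in HSAPN. For both genes and the cardiac markers, the library of HFD replicates 1 and 2 stood far above HFD replicate 3, and WT replicate 1 was the lowest WT library. The part of heart muscle and fat content in these levels was not tested.

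Slc36a2 was 4.42, 7.096 and 13.3 FPKM in WT, 23.8 and 8.83 FPKM in HFD, 7.61, 10.5 and 10.6 FPKM in HAPN, and 12.9, 10.2 and 11.2 FPKM in HSAPN. Slc27a1 was 15.03, 17.6 and 19.3 FPKM in WT, 32.5 and 11.7 FPKM in HFD, 15.5, 15.4 and 11.8 FPKM in HAPN, and 10.7, 8.29 and 9.75 FPKM in HSAPN. In both, the library of HFD replicates 1 and 2 was the highest, as it was for summed adipocyte markers (1545 FPKM, against 51.5 FPKM in HFD replicate 3).

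**Figure D2:**
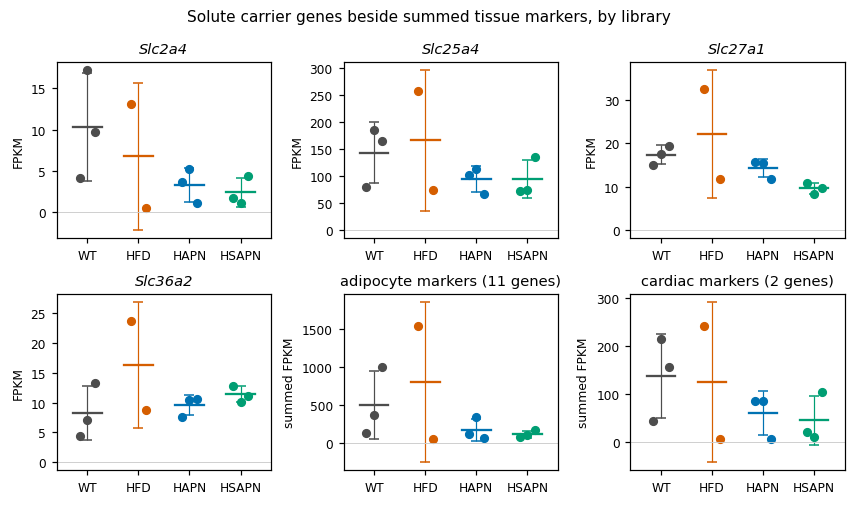
FPKM of Slc2a4, Slc25a4, Slc27a1 and Slc36a2, and summed FPKM of the adipocyte and cardiac marker lists, with a point per distinct library, a bar at the group mean and a whisker of 1 SD. In every panel the library of HFD replicates 1 and 2 (left HFD point) lies above HFD replicate 3, for adipocyte markers at 1545 against 51.5 FPKM.

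For the effect of diet, HFD (n = 2) was set against WT (n = 3). The transporters of noradrenaline, serotonin and small neutral amino acids (Slc6a2, Slc6a4 and Slc7a10) stood higher in HFD without overlap, and Slc25a35, Slc27a2 and Slc2a1 stood lower without overlap. No member passed the threshold: limma called 0 of the 39 tested members (0.0% of all 1659 tested genes were called; smallest adjusted p of a member 0.3003), with 6 members at an unadjusted p under 0.05 (11.4% of all tested genes), 4 higher (7.29%) and 2 lower (4.1%), and limma-voom on recovered reads also called 0 members. The groups did not overlap in 8 members, 5 higher and 3 lower, beside 12.1% and 7.17% of all tested genes. Without WT replicate 3 limma called 2 members (1.67% of all tested genes), and without HFD replicate 3 it called 2 others (1.03%). Differences here and below are on the log2(FPKM + 1) scale.

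Slc6a2, the transporter that clears released noradrenaline at sympathetic nerve endings, lies on mouse chromosome 8 (92960079 to 93001667, GRCm38). It measured 1.02, 1.21 and 8.36 FPKM in WT, 9.33 and 17.7 FPKM in HFD, 5.44, 8.103 and 8.53 FPKM in HAPN, and 14.6, 21.5 and 10.4 FPKM in HSAPN. WT replicates 1 and 2 were below every other library, WT replicate 3 lay among the high-fat libraries, and HSAPN lay above HAPN without overlap. The means were 15.5 ± 5.59 FPKM in HSAPN, 13.5 ± 5.88 in HFD, 7.36 ± 1.68 in HAPN and 3.53 ± 4.19 in WT (SD; n = 3, 2, 3 and 3). HFD exceeded WT by 2.00 (SE 0.619; limma adjusted p = 0.3003), and by 2.72 without WT replicate 3, when it passed (limma adjusted p = 0.0225). Without any other WT or HFD library the difference lay between 1.57 and 2.43. It did not pass without WT replicate 1 or WT replicate 2 (limma adjusted p = 0.676 and 0.725). Summed sympathetic neuron markers (10 of 10 in the table) were 5.19 to 11.4 FPKM in WT, 36.9 and 13.6 FPKM in HFD, 5.81 to 11.9 FPKM in HAPN and 11.7 to 13.2 FPKM in HSAPN. The list was split where Slc6a2 was highest, in HSAPN replicate 2 and HFD replicate 3. Th and Dbh, enzymes of noradrenaline synthesis, were both at 0 in HFD replicate 3, where 6 of the 10 markers were at 0, and were at 0 and 0.0212 FPKM in HSAPN replicate 2, where 5 were at 0. The neuronal growth gene Stmn2 made up most of the sum there, at 12.2 and 12.8 FPKM in turn, its highest values in the 11 libraries. Stmn2 was 3.96, 3.61 and 7.56 FPKM in WT, and was higher in each HSAPN library (10.5 to 12.2 FPKM) than in any HAPN library (4.96 to 10.2 FPKM), the order that Slc6a2 had. The part of nerve content in Slc6a2 was not tested.

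Slc7a10, which exchanges alanine, serine and cysteine and is known as a surface protein of white adipocytes, lies on chromosome 7 (35186385 to 35201114). It measured 0.217, 1.19 and 9.696 FPKM in WT, 18.6 and 10.8 FPKM in HFD, 3.33, 8.08 and 5.41 FPKM in HAPN, and 10.03, 8.59 and 11.4 FPKM in HSAPN. WT replicate 1 held 8 reads, the lowest, against 349 reads in WT replicate 3, and the spread within WT exceeded that within any other group relative to its mean. HFD exceeded WT by 2.31 (SE 0.752; limma adjusted p = 0.3003), and by 3.22 without WT replicate 3, when it passed (limma adjusted p = 0.0188). Without any other WT or HFD library the difference lay between 1.65 and 2.68. It did not pass without WT replicate 1 or WT replicate 2 (limma adjusted p = 0.676 and 0.725). In HFD replicate 3, where Slc7a10 was 10.8 FPKM, the 11 adipocyte markers summed to 51.5 FPKM, the lowest sum of the 11 libraries, with Lep at 0. Within the list, Adipoq and Plin1 were at 0.174 and 0.0129 FPKM there, below every WT library. The same held for Cidec, Fabp4, Pck1, Cfd and Retn. The lipases lay within the WT range. Lipe was at 12.4 FPKM, against 5.49, 6.88 and 14.6 FPKM in WT, and Pnpla2 at 24.6 FPKM, against 22.6, 34.5 and 48.5 FPKM. Lpl was at 7.40 FPKM, against 5.24, 15.2 and 20.5 FPKM. Lipe was above WT replicates 1 and 2 in all 8 high-fat libraries, as was Slc7a10. Pnpla2 and Lpl were not, since both were below WT replicate 2 in HFD replicate 3. The part of adipocyte content in Slc7a10 was not tested. The exons of Slc7a10 share 377 bases (17.9%) with Lrp3 on the opposite strand, and the sources do not give the counting strand. Lrp3 ranged from 0.644 FPKM in WT replicate 1 to 3.40 FPKM in the library of HFD replicates 1 and 2, also its lowest and highest libraries; reads of the shared bases cannot be told apart.

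Slc6a4 takes up serotonin and is abundant in platelets. It measured 0.568, 0.704 and 1.42 FPKM in WT, 6.65 and 2.22 FPKM in HFD, 2.91, 2.22 and 1.15 FPKM in HAPN, and 3.05, 2.76 and 2.15 FPKM in HSAPN. Every HFD and HSAPN library was above every WT library, and HAPN replicate 3 fell below WT replicate 3. HFD exceeded WT by 1.41 (SE 0.387, limma adjusted p = 0.3003). With a single HFD library left, the difference was 2.04 without HFD replicate 3 and 0.79 without the library of HFD replicates 1 and 2. Summed platelet markers (8 of 8 in the table, none at 0 in any library) were 90.1 to 137.8 FPKM in WT, 222.4 and 533.5 FPKM in HFD, 150.9 to 234.4 FPKM in HAPN and 183.9 to 244.1 FPKM in HSAPN. The part of platelet content in Slc6a4 was not tested.

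Among the glucose transporters, Slc2a3 (GLUT3), a high-affinity transporter of neurons, platelets and white blood cells, measured 0.883, 1.24 and 2.35 FPKM in WT and 8.75 and 2.16 FPKM in HFD. Its groups overlapped, since HFD replicate 3 lay below WT replicate 3. The difference was 1.20 (SE 0.430, limma adjusted p = 0.353). With a single HFD library left, it was 2.01 without HFD replicate 3 and 0.38 without the library of HFD replicates 1 and 2. Slc2a1 went the other way, at 20.2, 21.6 and 13.4 FPKM in WT and 13.2 and 10.3 FPKM in HFD (difference -0.59, SE 0.286; limma adjusted p = 0.470). WT replicate 3 was only just above the higher HFD library. Slc2a4 overlapped between the groups (-1.13, SE 0.914), and its difference was 0.49 without HFD replicate 3 and -2.76 without the other HFD library.

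Slc27a2, an acyl-CoA synthetase and fatty acid transporter best known from liver and kidney, was 3.81, 3.799 and 3.09 FPKM in WT and 2.51 and 0.641 FPKM in HFD (difference -0.92, SE 0.402; limma adjusted p = 0.424). The mitochondrial carrier Slc25a35 was 9.06, 9.57 and 6.86 FPKM in WT and 6.36 and 4.56 FPKM in HFD (-0.56, SE 0.221; limma adjusted p = 0.369). Both were lower in each HFD library than in any WT library, and the sizes depended on the HFD library used. Without HFD replicate 3 the difference was -0.37 for Slc27a2 and -0.36 for Slc25a35, and without the library of HFD replicates 1 and 2 that of Slc27a2 was -1.47. Of the exons of Slc25a35, 31.3% lie opposite exons of Rangrf, and of those of Slc27a2, 11.2% lie opposite exons of Gm26697. Reads of both members may include some of these genes, neither of which was found under that symbol among the genes analysed. Slc25a20 (11.2 ± 2.08 against 8.05 ± 0.549 FPKM) was higher in HFD without overlap, by 0.42 and, without the library of HFD replicates 1 and 2, by 0.25.

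By class, amino acid and neurotransmitter carriers lay above 0 in 8 of 9 tested members (21 in the table; median difference 0.83), Slc1a5 being the exception at -0.18. Mitochondrial carriers lay above 0 in 8 of 11 (median 0.11), or in 6 of 11 with median-ratio scaling. Over all 39 tested members 29 lay above 0 (median 0.16), beside 57.6% of all tested genes (median 0.07). Without a filter it was 43 of 70 (median 0.05). These counts rested on the library of HFD replicates 1 and 2, without which fewer tested members lay above 0 than below. Slc7a5, Slc7a8, Slc25a4, Slc25a22, Slc25a26 and Slc25a44 then moved below 0. The other tested members of these classes kept their side.

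The 3 high-fat groups, weighted equally, were also set against WT (8 and 3 libraries), a comparison that shares the WT and HFD libraries with the one before. Slc25a35 and Slc27a2 stood lower in every high-fat library than in any WT library. Aqp2, a water channel of the kidney collecting duct and the 1 of 6 fixed kidney tubule markers in the table, was ordered the same way, at 3.71, 4.34 and 1.99 FPKM in WT and 0.403 to 1.64 FPKM in the high-fat libraries, and its part in both genes was not tested. Limma called 0 of 39 members (0.0603% of all tested genes; smallest adjusted p of a member 0.130), with 7 members at an unadjusted p under 0.05 (23.6% of all tested genes), 4 higher (10.5%) and 3 lower (13.1%), and limma-voom called 0. Groups did not overlap in 0 members that were higher (1.75% of all tested genes) and in 2 that were lower (2.29%), and 23 of 39 members lay above 0 (44.6% of all tested genes). Over the 8 high-fat libraries Slc25a35 ran from 3.48 to 6.36 FPKM (median 5.27; mean 5.06 ± 0.850, SD), against 8.50 ± 1.44 FPKM in WT (difference -0.64, SE 0.165; limma adjusted p = 0.130). Slc27a2 ran from 0.392 to 2.51 FPKM (median 0.941; mean 1.23 ± 0.790), against 3.56 ± 0.413 FPKM (-1.09, SE 0.2996; limma adjusted p = 0.133). Its lowest values were in HSAPN replicate 1, HAPN replicate 3, HSAPN replicate 2 and HFD replicate 3. These held 26, 36, 42 and 40 reads in turn, beside 197 to 254 reads in WT.

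Calls in this comparison depended on WT replicate 3. Without it, limma called 240 of 1617 tested genes (14.8%) and 6 of 39 members (15.4%), a share near that of the table. Of the 6, Slc6a2 (2.53, adjusted p = 0.00599), Slc7a10 (2.64, 0.00599), Slc6a4 (1.21, 0.0461) and Slc1a3 (1.07, 0.0494) were higher in the high-fat libraries, and Slc25a35 (-0.77, 0.0307) and Slc2a1 (-0.83, 0.0421) were lower. Slc1a3, the glutamate and aspartate transporter GLAST, measured 0.7295, 1.23 and 4.05 FPKM in WT, 5.95 and 2.27 FPKM in HFD, 1.88, 3.05 and 3.29 FPKM in HAPN, and 2.24, 3.78 and 3.05 FPKM in HSAPN. With WT replicate 3 its difference was 0.61 (SE 0.350; limma adjusted p = 0.287). Red cell markers moved with the same libraries: the 6 genes in the table, none at 0 anywhere, summed to 412.9, 413.4 and 3215 FPKM in WT replicates 1, 2 and 3, and to 1312 to 4897 FPKM in the high-fat libraries. Their part in these differences was not tested.

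**Figure D3:**
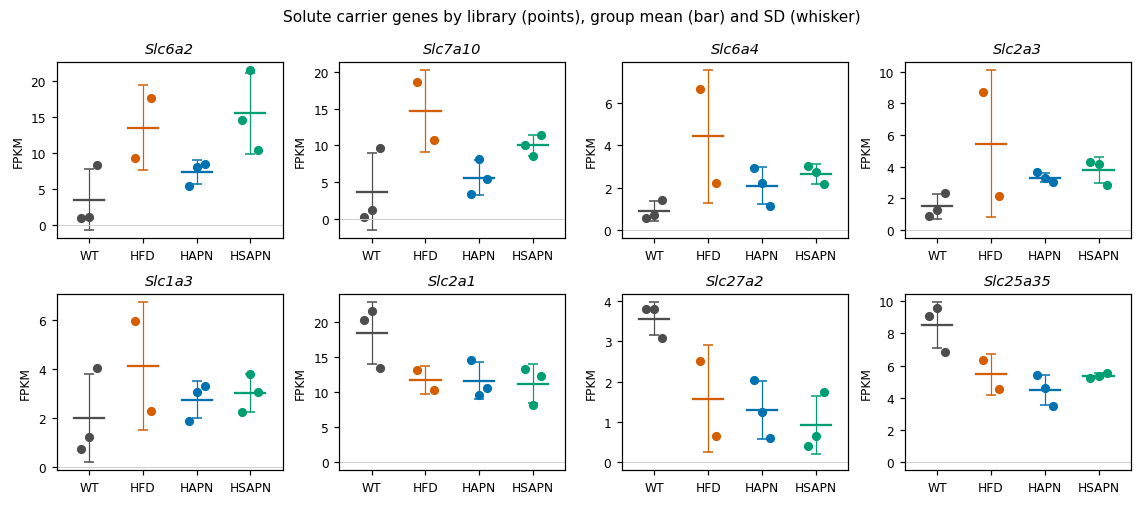
FPKM of 8 members by group, with a point per distinct library, a bar at the mean and a whisker of 1 SD. For Slc6a2, Slc7a10 and Slc1a3, WT replicate 3 (right WT point) lies among the high-fat libraries and far above the other WT libraries; for Slc27a2 and Slc25a35 all 3 WT libraries lie above all 8 high-fat ones.

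Promoter windows of 300 bases around the annotated start of transcription were held by RefSeq (GRCm38.p6) for 55 of the 70 members. Those of Slc7a10 and Slc6a4, higher in HFD, and Slc27a2, lower in HFD, are shown as windows of leading members of the diet comparison. Slc6a2 and Slc25a35, which also led it, had no window. Capitals mark GGGCGG, the GC box, on either strand. They lie at chr7:35186135-35186434, chr11:76998347-76998646 and chr2:126552774-126553073, all on the plus strand, 5′ to 3′.
Slc7a10: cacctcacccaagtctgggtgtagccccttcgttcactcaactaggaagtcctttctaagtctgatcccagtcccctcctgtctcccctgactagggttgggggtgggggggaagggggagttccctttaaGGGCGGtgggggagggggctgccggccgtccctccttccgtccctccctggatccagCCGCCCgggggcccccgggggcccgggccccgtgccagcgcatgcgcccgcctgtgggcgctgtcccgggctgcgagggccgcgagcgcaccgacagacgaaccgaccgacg
Slc6a4: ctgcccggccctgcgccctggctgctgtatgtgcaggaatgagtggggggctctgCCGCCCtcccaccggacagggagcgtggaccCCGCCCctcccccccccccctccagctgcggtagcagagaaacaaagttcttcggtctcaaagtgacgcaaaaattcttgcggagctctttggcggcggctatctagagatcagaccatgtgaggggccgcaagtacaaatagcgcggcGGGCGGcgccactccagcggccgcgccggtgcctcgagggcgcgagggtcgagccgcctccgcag
Slc27a2: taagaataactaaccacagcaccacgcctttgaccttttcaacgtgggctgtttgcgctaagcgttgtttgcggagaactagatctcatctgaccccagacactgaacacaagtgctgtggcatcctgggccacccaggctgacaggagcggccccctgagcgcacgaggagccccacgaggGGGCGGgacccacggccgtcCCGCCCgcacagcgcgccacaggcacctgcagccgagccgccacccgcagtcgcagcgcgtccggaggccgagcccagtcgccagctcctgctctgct

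GC boxes stood in all 3 windows, 2 in Slc7a10, 3 in Slc6a4 and 2 in Slc27a2, so genes that stood higher and lower share it. Searched on both strands, GGGCGG was found in 44 of 73 member windows (60.3%) and in 35.7% of all 32851 windows. The full set was not limited to genes of the table, and a gene can hold several windows. The shares are therefore not those of matched sets. TATAAA was in 11% of member windows and 13.6% of all, CCAAT in 42.5% and 37.4%, CACGTG in 11% and 7.15%, and TGACGTCA in 2.74% and 1.79%. None of these other 4 motifs was in the 3 windows. Median GC content was 58.3% in member windows and 52.7% in all.

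HAPN (n = 3) was compared with HFD (n = 2). Most members stood lower in HAPN, as did most of the table, and no member passed. Limma called 0 of 39 (0.181% of all tested genes; smallest adjusted p of a member 0.542), 1 member had an unadjusted p under 0.05 (8.62% of all tested genes), with 0 higher (2.65%) and 1 lower (5.97%), and limma-voom called 0. Groups did not overlap in 7 lower members (19.8% of all tested genes) and 1 higher member (6.51%). Over the members 32 of 39 lay below 0 and 7 above (24.9% of all tested genes lay above; median of the members -0.21), beside a median of -0.24 over all tested genes; with median-ratio scaling it was 22 of 39 (median -0.02, and -0.04 over all tested genes).

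Slc43a1, a transporter of branched-chain and other large neutral amino acids, had the smallest p: 0.442, 0.746 and 0.792 FPKM in HAPN against 2.39 and 1.09 FPKM in HFD (difference -0.69, SE 0.277; limma adjusted p = 0.542). Slc25a1, the citrate carrier, was 17.6, 19.7 and 19.5 FPKM against 34.01 and 21.5 FPKM (-0.50, SE 0.280). In both, each HFD library lay above all 3 HAPN libraries, and the library of HFD replicates 1 and 2 was the higher. The groups were likewise apart for Slc25a26, which imports S-adenosylmethionine (1.37 ± 0.142 against 2.13 ± 0.655 FPKM), Slc5a6, which takes up biotin and pantothenate (0.999 ± 0.127 against 1.57 ± 0.605 FPKM), Slc7a10 (-1.27, SE 0.752) and Slc6a2 (-0.75, SE 0.619). Slc23a3, a member of the ascorbate transporter family, was the single member higher without overlap, at 1.30 ± 0.229 against 0.773 ± 0.425 FPKM (0.39, SE 0.189; limma adjusted p = 0.542). These sizes moved with single HFD libraries. Without the library of HFD replicates 1 and 2 the difference was -0.34 for Slc43a1, -0.18 for Slc25a1, -0.17 for Slc25a26 and -0.10 for Slc5a6, while without HFD replicate 3 these were -1.03, -0.81, -0.60 and -0.59. That of Slc23a3 was 0.64 and 0.15 without these libraries in turn. Mitochondrial carriers lay below 0 in 10 of 11 members, and in 5 of 11 with median-ratio scaling. Amino acid and neurotransmitter carriers lay below 0 in 8 of 9 under both scalings (median -0.58 as deposited).

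APPL1 knockdown was compared with HAPN (HSAPN and HAPN, n = 3 each). Slc5a3 and Slc23a3 stood lower in HSAPN, and Slc6a2 and Slc7a10 higher, none past the threshold. Limma called 0 of 39 members (0.121% of all tested genes; smallest adjusted p of a member 0.302), 2 had an unadjusted p under 0.05 (7.84% of all tested genes), 0 higher (3.62%) and 2 lower (4.22%), and limma-voom called 0. Groups did not overlap in 4 higher members (9.95% of all tested genes) and 3 lower members (7.53%).

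Slc5a3 carries myo-inositol, an osmolyte, into cells with sodium. It measured 4.62, 4.89 and 2.53 FPKM in HAPN and 1.63, 1.77 and 1.67 FPKM in HSAPN, and 1.26, 1.34 and 2.91 FPKM in WT and 2.702 and 1.895 FPKM in HFD. The HSAPN libraries were tightly grouped, and HAPN replicates 1 and 2 were the highest of the 11 libraries. The mean was 2.38-fold lower in HSAPN than in HAPN (difference -0.86, SE 0.271; limma adjusted p = 0.397), and leaving out single libraries moved the difference between -1.10 and -0.73. Slc23a3 measured 1.57, 1.14 and 1.21 FPKM in HAPN and 0.575, 0.526 and 0.473 FPKM in HSAPN, or 41 to 55 reads against 17 to 22. With 0.923, 0.697 and 0.787 FPKM in WT, and 1.07 and 0.472 FPKM in HFD, HAPN was the highest group. The mean was 2.49-fold lower in HSAPN than in HAPN (-0.59, SE 0.169; limma adjusted p = 0.302).

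The windows of Slc5a3 and Slc23a3 are shown because they lead this comparison; capitals again mark GGGCGG on either strand. They lie at chr16:92058072-92058371 on the plus strand and chr1:75133841-75134140 on the minus strand, 5′ to 3′, RefSeq GRCm38.p6.
Slc5a3: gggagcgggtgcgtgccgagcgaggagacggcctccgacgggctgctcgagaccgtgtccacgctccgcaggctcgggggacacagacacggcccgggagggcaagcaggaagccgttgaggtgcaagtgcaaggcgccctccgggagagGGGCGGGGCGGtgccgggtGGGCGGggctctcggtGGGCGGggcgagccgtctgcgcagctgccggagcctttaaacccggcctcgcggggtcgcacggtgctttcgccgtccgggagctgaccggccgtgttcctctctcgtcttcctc
Slc23a3: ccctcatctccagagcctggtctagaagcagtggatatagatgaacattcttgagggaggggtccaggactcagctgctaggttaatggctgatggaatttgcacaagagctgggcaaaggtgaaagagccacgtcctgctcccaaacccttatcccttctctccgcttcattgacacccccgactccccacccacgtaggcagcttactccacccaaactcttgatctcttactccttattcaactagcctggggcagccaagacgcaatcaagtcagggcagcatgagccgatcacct

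The Slc5a3 window held 4 GC boxes, 2 of them overlapping, with a GC content of 73.3%. The Slc23a3 window held none of the 5 motifs at a GC content of 53.3%. Exons of Slc5a3 share 159 bases (1.46%) with Mrps6 on the same strand.

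Slc6a2 was 2.10-fold higher in HSAPN than in HAPN by the means (difference 0.94, SE 0.554; limma adjusted p = 0.852) and Slc7a10 1.79-fold (0.80, SE 0.672; limma adjusted p = 0.999; 0.52 without HAPN replicate 1), with no overlap in either. Slc41a3, a magnesium transporter, was 2.67 ± 0.532 against 1.85 ± 0.247 FPKM and Slc25a44 6.66 ± 0.514 against 5.64 ± 0.456 FPKM. Slc27a1 was lower in HSAPN, at 9.58 ± 1.22 against 14.2 ± 2.14 FPKM (-0.52, SE 0.315; limma adjusted p = 0.872). Amino acid and neurotransmitter carriers lay above 0 in 8 of 9 members (median 0.24; 8 of 9 with median-ratio scaling) and mitochondrial carriers in 6 of 11 (5 of 11). Of all 39 members 22 lay above 0 (53.5% of all tested genes), and their median was 0.11, beside 0.03 over all tested genes. Summed adipocyte markers overlapped between these groups (54.8 to 332.4 FPKM in HAPN, 77.25 to 165.4 FPKM in HSAPN), as did platelet, cardiac and smooth muscle markers.

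**Figure D4:**
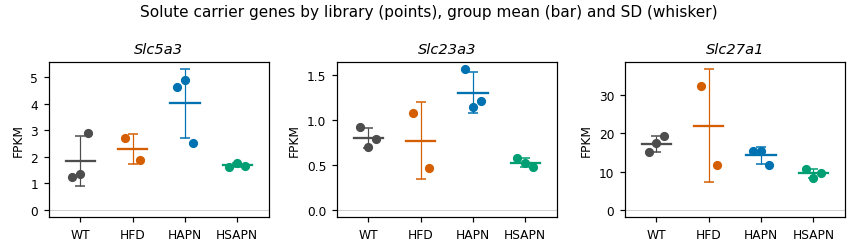
FPKM of Slc5a3, Slc23a3 and Slc27a1 by group, with a point per distinct library, a bar at the mean and a whisker of 1 SD. All 3 HSAPN libraries lie below all 3 HAPN libraries in each panel, for Slc23a3 at 0.473 to 0.575 against 1.14 to 1.56 FPKM.

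HSAPN was also set against HFD (n = 3 and 2). Limma called 0 of 39 members (0.0% of all tested genes; smallest adjusted p of a member 0.886), 1 had an unadjusted p under 0.05 (4.04% of all tested genes), with 0 higher (0.482%) and 1 lower (3.56%), and limma-voom called 0. That member was Slc27a1, at 10.7, 8.29 and 9.75 FPKM in HSAPN and 32.5 and 11.7 FPKM in HFD (difference -0.97, SE 0.352; limma adjusted p = 0.886). The size of this difference rests on the library of HFD replicates 1 and 2, without which it was -0.26, and without HFD replicate 3 it was -1.67. Slc5a3 was the other member without overlap, also lower (1.69 ± 0.0732 against 2.299 ± 0.570 FPKM; difference -0.28, and -0.11 without the library of HFD replicates 1 and 2); the 2 lower members are beside 14.2% of all tested genes, and the 0 higher beside 5.61%. Of the members 30 of 39 lay below 0 (24 of 39 with median-ratio scaling) and 9 above (27.1% of all tested genes), at a median of -0.20 beside -0.18 over all tested genes.

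**Figure D5:**
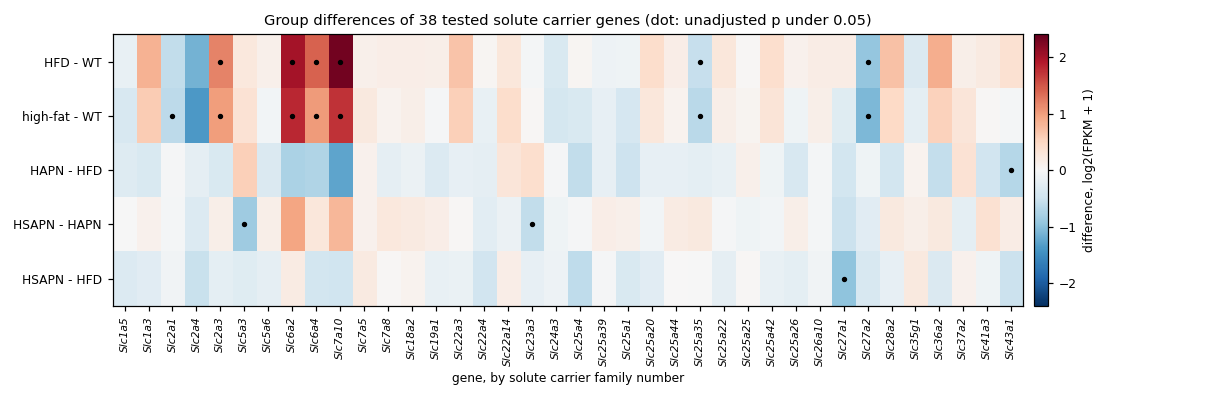
Difference on the log2(FPKM + 1) scale of 38 of the 39 tested members (columns, by family number) in 5 comparisons (rows), red where the first-named group was higher and blue where it was lower; a dot marks an unadjusted p under 0.05, and no member passed after adjustment. The first 2 rows, which share the WT and HFD libraries, hold most dots: both mark Slc2a3, Slc6a2, Slc6a4, Slc7a10, Slc25a35 and Slc27a2, and the second also marks Slc2a1.

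Other transport genes of a fixed list gave the same count of calls. The table held 68 ABC transporters, aquaporins, ion pumps, potassium, calcium and sodium channels, organic anion transporters of the Slco family and solute carriers or partners under other symbols, of which 24 were tested. Limma called 0 of 24 in each of the 5 comparisons, beside 0.0% to 0.181% of all tested genes. At an unadjusted p under 0.05 there were 2 higher and 1 lower in HFD against WT (7.29% and 4.1% of all tested genes). In the high-fat groups against WT there were 3 higher and 2 lower (10.5% and 13.1%). There were 0 in HAPN against HFD (8.62%), HSAPN against HAPN (7.84%) and HSAPN against HFD (4.04%). The median difference was 0.03 in HFD against WT and -0.26 in HAPN against HFD. Ucp3, a family 25 carrier under another symbol, was 0.474, 0.910 and 1.90 FPKM in WT and 5.94 and 0.825 FPKM in HFD.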

How the data were processed

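Aortic RNA came from a TRIzol extraction and entered a strand-marking library kit, per the labels' protocols. The authors deposited 1 FPKM value per gene symbol in each file; GRCm38, featureCounts 1.5.0-p3 and DESeq 1.8.3 come from the submitters' processing notes, which state no role for them. For the aligner, annotation and counting strand, the sources used here give nothing. With exonic lengths of GENCODE M21 (GRCm38), 96.1 to 97.2% of values up to 20 reads were whole reads (tolerance 0.1). The table holds 12.0 to 17.6% of the recovered reads, and how its genes were chosen is not given. A symbol listed 2 times was left out.

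The 1659 genes that reached 1 FPKM in 3 or more distinct libraries were tested with limma 3.58.1 (R 4.3.3; limma-trend, 1 fit of 4 group means) on log2(FPKM + 1), a scale that understates changes of low genes. P-values were adjusted by Benjamini-Hochberg over all tested genes of a comparison, with a threshold of 0.05. The script was tested on simulated data. Members named are the 3 given by the rule, the 10 highest, the highest of each transport class, and up to 6 non-overlapping members with the smallest p in each direction of a comparison; the other members and partner genes named were chosen after their values were seen, and not every gene of the rule is described. The single-gene results of 2 members are not reported here, and counts include them. The members and lists were chosen with earlier results of these data known. Alternatives were pseudocount, filter, scaling, fitted groups, replicate block, limma-voom on recovered reads and each library left out. Tables were made with Python 3.11.15 and pandas 2.3.3, figures with matplotlib 3.10.9.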

Additional observations from a re-analysis of the deposited data

How the results depend on the processing

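In each of the 5 comparisons the count of members past the threshold was 0 and stayed 0 with a pseudocount of 0.1, with no filter, with a stricter filter (6 libraries), with median-ratio scaling, with the compared groups fitted alone and with limma-voom. With a single WT, HAPN or HSAPN library left out, the count lay between 0 and 2 in HFD against WT. It was 2 without WT replicate 3, beside 1.67% of all tested genes. In the high-fat groups against WT it lay between 0 and 6 (6 without WT replicate 3, beside 14.8%). In the other comparisons it was 0 throughout. Without an HFD library that group is reduced to 1 library and is assumed to vary like the others, so only differences are given. The 26 differences of named members without overlap kept their direction in all 354 alternative values. Groups that do not overlap keep their order when a library is left out, so those fits could not reverse a direction. Slc2a4, a named member whose groups overlapped, did reverse in HFD against WT, from -1.13 to 0.49 without HFD replicate 3. Replicate numbers in the titles are not said to pair the samples. Of 18 same-numbered pairs of libraries, 6 had a correlation of deviations over 0.1 (range -0.592 to 0.577), as had 14 of 27 other pairs. The deviations were taken from the mean of each small group, so those of the HFD libraries mirror each other. These correlations therefore cannot decide whether samples were paired. With the replicate block, taking the merged HFD library as number 1 or as number 2, the count of members was 0 in every comparison. Read totals limit the low members: 1 read on 1 kb of exon is worth 0.0561 to 0.0641 FPKM, and differences among members with a few reads were not detectable at this depth.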
